A study of Mus musculus with 4 samples.

Results

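The genes described are those of the cytosolic ribosomal proteins, measured on 4 one-colour Agilent arrays of mouse T helper 17 cells. They were taken as all probes named Rpl or Rps with a number, an optional letter or a suffix l, together with Rplp0, Rplp1, Rplp2 and Rpsa, and with the Rps6k kinase names left out. This gave 84 genes with 188 probes, of 26680 gene names and 55681 probes on the array. A gene was tested where 1 of its probes exceeded background on both wild-type or on both knockout arrays, which 82 of the 84 genes did, among 19151 genes tested in all. Rpl10l, a testis paralog of Rpl10, and Rpl3l, a muscle paralog of Rpl3, were not well above background on any array and were not tested. The name Rpl22p also matched, and RefSeq places its probe in a predicted gene (Gm13196) on chromosome 2.

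The study compared wild-type CD4 cells with CD4 cells of the miR155 knockout genotype, with 2 arrays each that the design text names as biological replicates. Both genotypes were cultured in RPMI with serum, antibodies to CD3e and CD28, TGFb and IL-6, and both were then sorted for CD4 and for a red fluorescent IL17F reporter (RFP), so the polarising conditions and the reporter sort were shared by wild type and knockout. Total RNA was labelled with Cy3. The labels do not say which animals or cultures the arrays came from, so p-values measure only the spread between these samples, which may be technical.

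Each cytosolic ribosome carries a single copy of nearly every ribosomal protein, bound to ribosomal RNA in a large subunit, which forms peptide bonds, and a small subunit, which reads the messenger RNA. Their messenger RNAs begin with a run of pyrimidines (a 5′ terminal oligopyrimidine, or TOP, tract) through which mTOR signalling regulates their translation, and T cells that are activated raise ribosome production as they grow. A few of the proteins have paralogs with restricted expression, for example in the male germ line or in muscle.

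The share of spots well above background ran from 63.5% to 69.8% per array, and no spot was saturated. All 7 markers of the sorted cell (Cd3e, Cd3d, Cd3g, Cd4, Cd5, Il17f and Il17a) were above background on all arrays. Il17f, the gene that the reporter marks, was at 3.68 and 3.78 in wild type and at 1.52 and 1.92 in knockout, as log2 signal relative to the array's 75th percentile. Il17a was at 2.10 and 1.59 in wild type and at -0.62 and -2.02 in knockout. Its difference was -3.17 (unadjusted p 0.0034 and adjusted p 0.297 by limma). Il17f and Il17a are a small part of the sum over all 7 markers, taken on a linear scale. That summed level was 414 and 449 times the array's 75th percentile in wild type and 380.0 and 412 in knockout. For markers of CD8 cells, NK cells or gamma-delta T cells, 8 of 9 of them on the array, it was 17.1 and 20.5 in wild type and 13.2 and 16.6 in knockout, with Ncr1 not above background. Most of that sum is Klrd1, at 3.90 and 4.2 in wild type and 3.39 and 3.77 in knockout, while Cd8a (difference 1.30, unadjusted p 0.00102 by limma) and Fcer1g (0.94, 0.0093) were higher on both knockout arrays. For 7 B cell markers it was 4.02 and 3.02 against 4.46 and 4.88, with differences of 1.16 in Cd79b, -0.97 in Ebf1 and -0.60 in Cd22. For 7 macrophage and dendritic cell markers it was 19 and 18.8 against 21.7 and 20.4, mostly from Itgam (difference 0.016). Of these markers 6 had differences above 0 and 1 below, with Cd74 at 0.48 (unadjusted p 0.028 by limma). For neutrophil, mast cell and erythroid markers, 5 of 6 of them on the array, the sum was 0.238 and 0.327 against 0.378 and 0.30, with Cpa3 and Ngp not above background. The part of such cells in the results was not tested. No probe carries the name of the miR-155 gene, so the deletion was not analysed here. Both wild-type arrays lay in the first row of the slide and both knockout arrays in the other, so the row cannot be told apart from the genotype. The surface that the scanner software fitted to the signals was most uneven on knockout array 1, where its SD was 0.157, while it lay between 0.0498 and 0.0557 elsewhere.

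As measured by the brightest probe of each gene, ribosomal protein transcripts were at nearly the same level in wild-type and knockout cells. Levels are given as log2 processed signal minus the array's 75th percentile, and differences as knockout minus wild type on that log2 scale. The median level of the 82 genes was 8.54 and 8.60 on the wild-type arrays and 8.59 and 8.53 on the knockout arrays, so that the genotypes overlapped. The median difference was -0.022, against 0.017 for all genes tested, with 26 genes above 0 and 56 below. That balance depends on the scaling: when arrays were set to a common median instead, which shifted the median of all genes by -0.16, 81 of the 82 differences were below 0, and with quantile scaling 51 were. Relative to the median of all genes, 62 of the 82 lay below with the 75th percentile as the scale. Median scaling cannot change that count, since both scalings shift each array by a constant. With quantile scaling 47 of the 82 lay below it, and with normexp background correction 80 did. In bulk RNA, fewer cells of a type and less RNA per cell cannot be told apart.

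The differences were small for most of the family. They lay within 0.25 of 0 for 80 of the 82 genes (97.6%), against 61.6% of all genes tested. The median size of the difference was 0.050, against 0.19 over all genes. These genes give strong signals, which replicate closely: their wild-type replicates differed by a median of 0.067 and their knockout replicates by 0.089, against 0.16 and 0.19 for all genes. The 76 ribosomal protein genes with a mean level of 7 or more share that range with 367 other genes, of which 92.6% lay within 0.25 of 0 and 0.817% had an unadjusted p under 0.05. The median size of the difference in those other genes was 0.086. Small differences were thus also common in other strongly measured genes, and the part of signal strength was not tested.

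**Figure D1:**
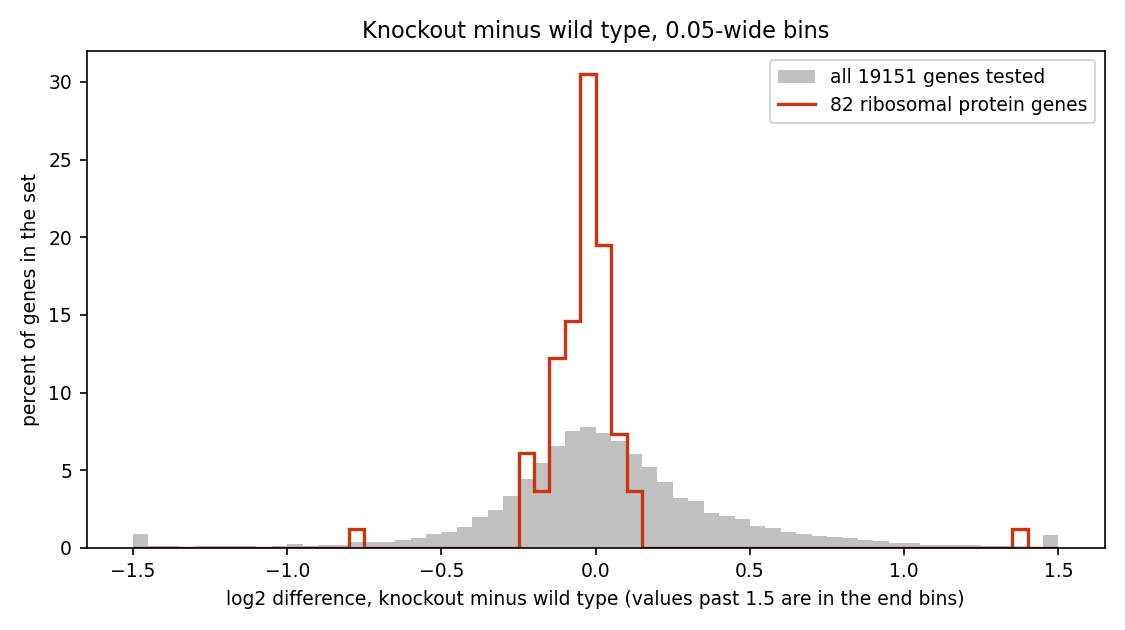
Distribution of the log2 difference, knockout minus wild type, in bins 0.05 wide, as a percent of each set of genes (grey, all 19151 genes tested; red outline, the 82 ribosomal protein genes). All but 2 ribosomal protein genes lie within 0.25 of 0, and the 2 isolated red bins are Rps3a at -0.79 and Rpl39l at 1.39.

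One gene of the family, Rpl39l, had an unadjusted p under 0.05 in the limma fit, against 11.3% of all genes tested (7.23% higher in knockout and 4.1% lower). No gene of the family, and no gene among all tested (0.0%), had an adjusted p under 0.05 with Benjamini-Hochberg adjustment. The smallest adjusted p was 0.255. In 7 ribosomal protein genes both knockout arrays lay above both wild-type arrays, against 25.4% of all genes, and in 25 both lay below, against 22.3% of all genes. The groups therefore did not overlap in 32 of 82 genes, against 47.8% of all genes. An exact permutation test of 2 arrays against 2 cannot give a two-sided p under 0.333.

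**Figure D2:**
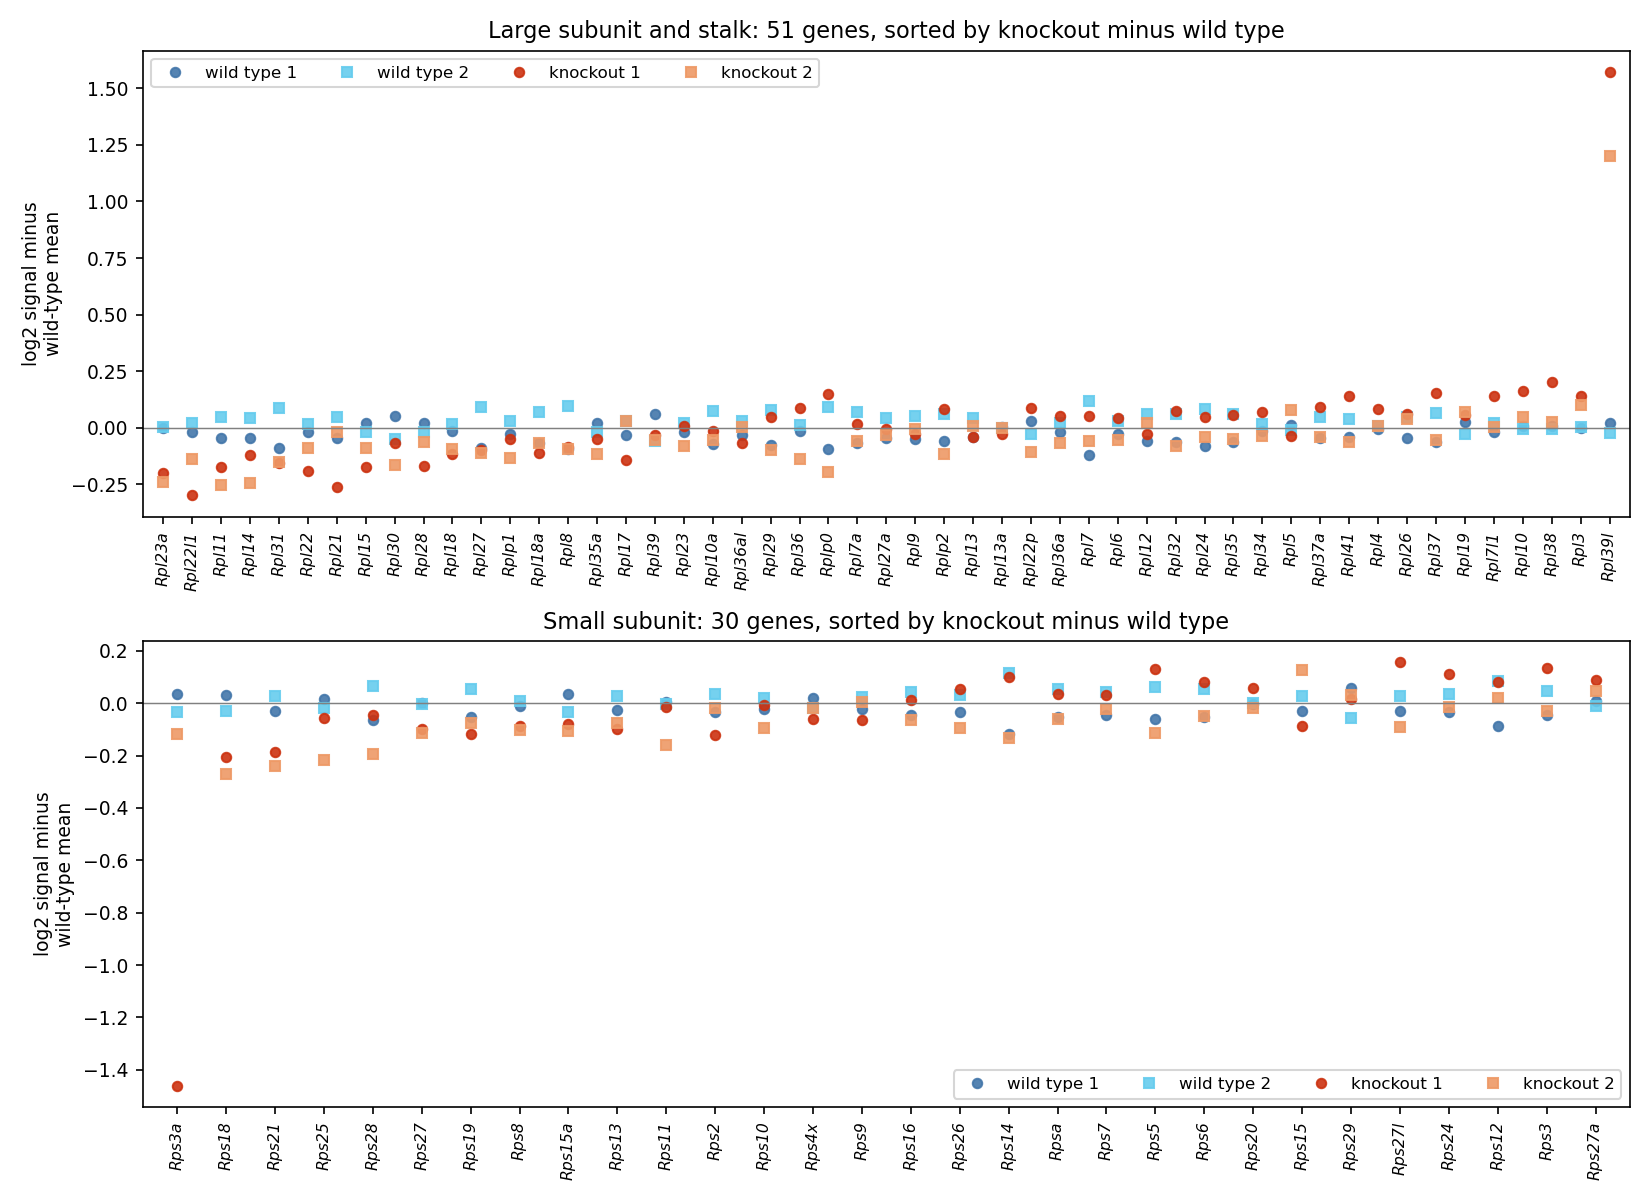
Level of 81 of the 82 genes on each array, as log2 signal minus the mean of the wild-type arrays, for the large subunit and stalk (top) and the small subunit (bottom), sorted by knockout minus wild type. Nearly all points lie within 0.25 of the line at 0. Rpl39l stands at 1.57 and 1.20 on the knockout arrays, and Rps3a at -1.46 on knockout array 1 alone.

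The large subunit was measured through 48 tested genes, of which 15 had differences above 0 and 33 below, with a median of -0.019. At the lower end stood Rpl23a, a protein at the exit of the peptide tunnel, at 8.28 and 8.29 in wild type and 8.08 and 8.05 in knockout. Its difference was -0.22 with a standard error of 0.12, and the groups did not overlap, but the unadjusted p was 0.125. A second, less bright Rpl23a probe gave 7.0 and 6.96 in wild type and 6.53 and 6.73 in knockout, a difference of -0.35 in the same direction.

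Rpl11, which with Rpl5 binds and restrains the p53 ligase Mdm2 when ribosome assembly is disturbed, was at 9.10 and 9.20 in wild type and at 8.98 and 8.89 in knockout. Both knockout arrays lay below both wild-type arrays, with a difference of -0.21, a standard error of 0.12 and an unadjusted p of 0.153. This probe lies in a corner block of the array, described with Rps3a below. Knockout array 1, which was dim in those blocks, was not the lower of the knockout arrays for this probe. Outside the blocks, a second Rpl11 probe was at 8.13 and 8.15 in wild type and at 8.05 and 8.04 in knockout, and another gave a difference of -0.094. The second probe's groups did not overlap either, with a smaller difference of -0.098. Rpl5 was at 7.73 and 7.71 in wild type and 7.69 and 7.80 in knockout, and there the groups overlapped (difference 0.022). The wild-type and knockout levels of Mdm2 itself also overlapped, at 5.32 and 4.98 against 4.21 and 4.98.

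At the upper end of the large subunit, apart from Rpl39l, were Rpl3, Rpl38 and Rpl10. Rpl3, a core protein close to the peptidyl transferase centre, was at 8.59 and 8.60 in wild type and 8.74 and 8.70 in knockout, a difference of 0.12 with a standard error of 0.12. That probe is placed on another chromosome than the gene, and the second Rpl3 probe was at 8.64 and 8.70 against 8.56 and 8.62, with a difference of -0.077. The mean of both probes differed by 0.021. Rpl10, which joins the pre-60S particle late in its maturation, was at 9.01 and 9.0 in wild type and 9.17 and 9.05 in knockout, a difference of 0.10 with the same standard error. With these brightest probes the knockout arrays lay above the wild-type arrays in both genes, and the unadjusted p was over 0.35.

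The small subunit had 31 tested genes, 11 with differences above 0 and 20 below, and a median of -0.030. Rps18, a protein of the small subunit's head, was at 8.03 and 7.97 in wild type and at 7.79 and 7.73 in knockout. Its difference was -0.24 with a standard error of 0.12 and an unadjusted p of 0.111, and the groups did not overlap. A second Rps18 probe was at 7.75 and 7.76 in wild type and at 7.61 and 7.81 in knockout, overlapping, with a difference of -0.047, and the mean of both probes differed by -0.14. Rps21 was at 6.81 and 6.87 in wild type and at 6.65 and 6.60 in knockout, again without overlap, with a difference of -0.21 and an unadjusted p of 0.141.

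The much studied members of the small subunit differed by 0.10 or less. Rps6, the substrate of S6 kinase whose phosphorylation is used as a readout of mTOR signalling, was at 8.49 and 8.60 in wild type and at 8.62 and 8.49 in knockout. The groups overlapped, and the difference was 0.015 with a standard error of 0.13. Rps14, lost in the 5q deletion syndrome of human bone marrow, was at 9.04 and 9.27 against 9.25 and 9.02, and here the replicates of a genotype differed more than the genotypes did (difference -0.016). Rps19, mutated in Diamond-Blackfan anaemia, was at 7.73 and 7.84 against 7.66 and 7.71, with a difference of -0.096 and an adjusted p of 0.76 by limma. The highest difference of the subunit was 0.069 in Rps27a, which encodes a ubiquitin fusion, at 9.02 and 9.0 in wild type and 9.10 and 9.06 in knockout.

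The stalk of the large subunit, which recruits elongation factors, is built from Rplp0, Rplp1 and Rplp2. Rplp0 was at 9.39 and 9.58 in wild type and at 9.64 and 9.29 in knockout, so the knockout arrays spanned the wild-type ones (difference -0.022, standard error 0.18). Rplp1 was at 8.90 and 8.95 in wild type and at 8.87 and 8.79 in knockout, with no overlap and a difference of -0.093. Rplp2 was at 8.96 and 9.08 against 9.11 and 8.90, and overlapped (difference -0.017). Rpsa, which is both a small subunit protein and the laminin receptor, was at 9.01 and 9.12 against 9.10 and 9.01, and overlapped as well (difference -0.011). Unadjusted p-values for these genes ran from 0.479 for Rplp1 to 0.931 for Rpsa.

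Ribosomal proteins with other names gave values of the same size. Fau, which encodes Rps30 fused to a ubiquitin-like protein, differed by 0.029, and Rack1, a scaffold protein of the small subunit's head, by 0.039. Their adjusted p in the limma fit was 0.939 and 0.906.

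Of the 7 paralogs named after another member, 5 were tested, 3 with differences above 0 and 2 below, with a range of -0.22 to 1.39. The upper end is Rpl39l alone, and the other 4 ran from -0.22 to 0.072. The other 77 genes ranged from -0.79 to 0.12.

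Rpl39l had the highest difference of the family, 1.39 with a standard error of 0.17, or 2.61-fold higher in knockout. It encodes a near copy of Rpl39, a short protein of the peptide exit tunnel, and is known for its expression in male germ cells. It was at -2.33 and -2.37 in wild type and at -0.78 and -1.15 in knockout. The gap between the groups was larger than the difference between replicates of either genotype. The unadjusted p was 0.00111, and the adjusted p by limma with Benjamini-Hochberg adjustment was 0.255, so the call did not hold over all genes tested. Across the 15 alternative settings the difference ran from 1.07 to 1.57 and the adjusted p from 0.0986 to 0.509. Rpl39 itself was at 8.53 and 8.41 in wild type and at 8.44 and 8.42 in knockout, a difference of -0.045 with overlapping groups.

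The Rpl39l probe was set against the Rpl39 probes, since the coding sequences of the genes are close. Its first 30 bases are shown beside the whole Rpl39 probe, both in lower case as no part is marked. The Rpl39l probe lies in chr16:10174657-10174716 and the Rpl39 probe in chrX:34622696-34623990, on mm9 as given in the files.
Rpl39l: ctgtgctttagtgagttcattcagcagttc
Rpl39: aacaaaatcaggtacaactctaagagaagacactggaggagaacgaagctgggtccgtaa
The Rpl39l probe (60 bases) shared no run of more than 7 bases with a Rpl39 probe, nor of more than 8 with any other probe of the family. Only probes were compared, so a match to the rest of the Rpl39 transcript or to processed copies was not tested. It is the only Rpl39l probe, so a second probe could not be compared.

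Rpl22l1, the paralog of Rpl22, was at 7.04 and 7.08 in wild type and at 6.76 and 6.92 in knockout. Both knockout arrays lay below, with a difference of -0.22, a standard error of 0.13 and an unadjusted p of 0.162. Rpl22, which is required for the development of alpha-beta T cells, was at 8.61 and 8.64 in wild type and at 8.43 and 8.54 in knockout, also without overlap and with a difference of -0.14. That difference was 0.24 when the signals of knockout array 1 were divided by their fitted surface, so its direction turned. The Rpl22l1 probe lies in chr3:28706237-28706296 and the Rpl22 probe in chr4:151706515-151706574 (mm9).

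In the remaining paralogs the groups overlapped. Rpl36al, the autosomal copy of the X-linked Rpl36a, differed by -0.033 and Rpl36a by -0.0081. Rpl7l1, a nucleolar relative of Rpl7 that acts in ribosome assembly, differed by 0.072 and Rpl7 by -0.0049. Rps27l, a p53 target, was at 6.05 and 6.11 in wild type and at 6.24 and 5.99 in knockout, a difference of 0.033. Its paralog Rps27 was at 8.95 and 8.95 against 8.85 and 8.84, lower on both knockout arrays, with a difference of -0.10 and an adjusted p of 0.722 by limma. The other Rps27 probes differed by -0.0053, 0.053 and 0.020, and the mean of all its probes by -0.0091.

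**Figure D3:**
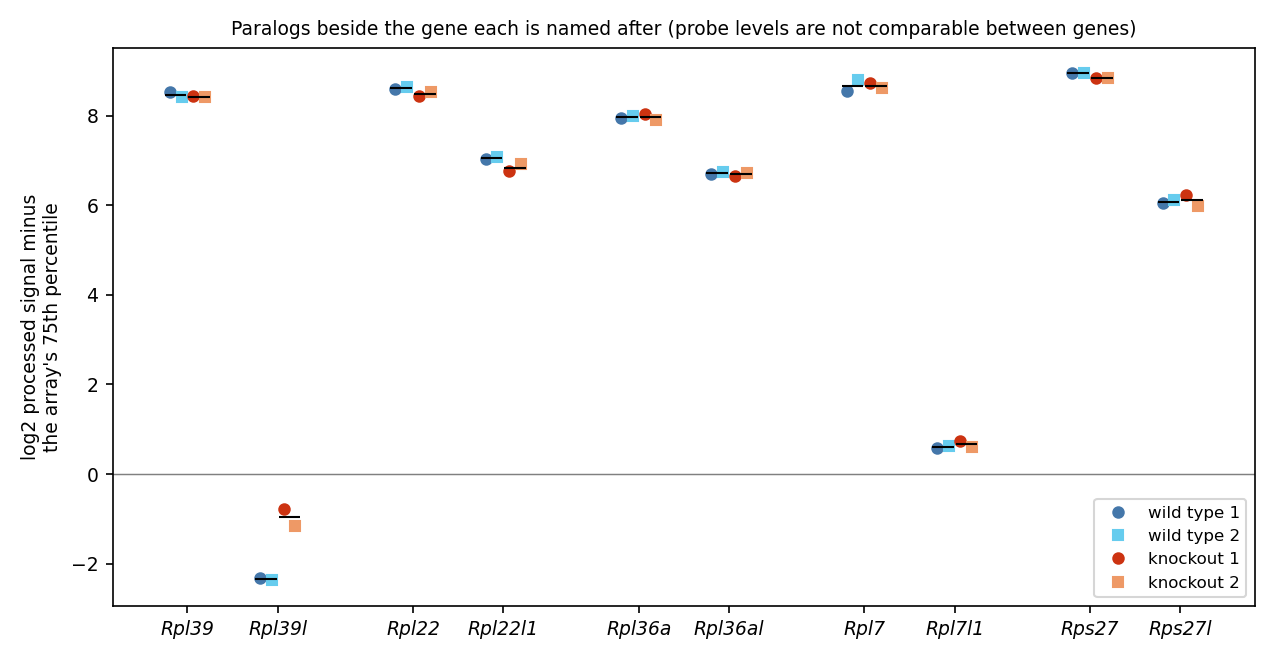
Levels of 5 tested paralogs and of the genes they are named after on each array (points; bars, group means of 2 arrays), as log2 processed signal minus the array's 75th percentile. The widest gap between genotypes is in Rpl39l, at -2.33 and -2.37 in wild type and -0.78 and -1.15 in knockout; levels of different probes are not comparable.

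Rps3a, a small subunit protein, had the lowest difference of the family, and the size of that difference rested on 1 array and 1 probe. Its brightest probe was at 8.35 and 8.28 in wild type and at 6.86 and 8.20 in knockout, so knockout array 1 stood apart from the other 3. The difference was -0.79 with a standard error of 0.48 and an unadjusted p of 0.173. Without knockout array 1 it was -0.12. Without knockout array 2 it was -1.46, with an unadjusted p of 0.00175 and an adjusted p of 0.138 by limma. Once array 1 was divided by its surface it was -0.15.

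That probe lies in one of the corner blocks at the right edge of the arrays, where knockout array 1 was dim. Rps3a has 3 probes, all on chromosome 3 (mm9), shown 5′ to 3′ with the 12 bases that the corner probe and the second probe share in capitals. In the order shown they lie in chr3:85942435-85942494, chr3:85942027-85942458 and chr3:85943041-85943100.
Rps3a corner probe: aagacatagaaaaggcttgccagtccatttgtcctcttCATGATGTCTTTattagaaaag
Rps3a second probe: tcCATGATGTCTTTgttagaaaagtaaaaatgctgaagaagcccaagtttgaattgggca
Rps3a last probe: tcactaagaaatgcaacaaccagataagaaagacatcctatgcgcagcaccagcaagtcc
The second probe was at 6.46 and 6.53 in wild type and at 6.15 and 6.32 in knockout, a difference of -0.26 without overlap. The last was at 7.34 and 7.37 against 7.38 and 7.29, and its groups overlapped, with a difference of -0.023. Neither shows the low value of knockout array 1 seen with the corner probe.

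A low value on knockout array 1 recurred in some, not all, of the other members with a probe in a corner block. Against the wild-type mean, the 10 corner probes of the family ran from -2.96 to -0.12 on knockout array 1, and 4 of them were more than 0.5 lower. On knockout array 2 they ran from -0.25 to 0.076, and none was more than 0.5 lower. None of the 174 tested probes outside the blocks was more than 0.5 lower on knockout array 1, and 1 of them was on knockout array 2. Rpl38, a large subunit protein whose loss alters the skeleton in mice, shows the drop on knockout array 1 most clearly. Its probe outside the blocks was at 8.41 and 8.40 in wild type and at 8.61 and 8.43 in knockout (difference 0.11). Its corner probe was at 8.84 and 8.73 in wild type and at 5.82 and 8.76 in knockout (difference -1.49), although the probes share a run of 53 of 60 bases. Rps13 repeated this, with a corner probe at 8.64 and 8.41 against 6.75 and 8.45, and its other probe at 8.19 and 8.24 against 8.11 and 8.14.

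**Figure D4:**
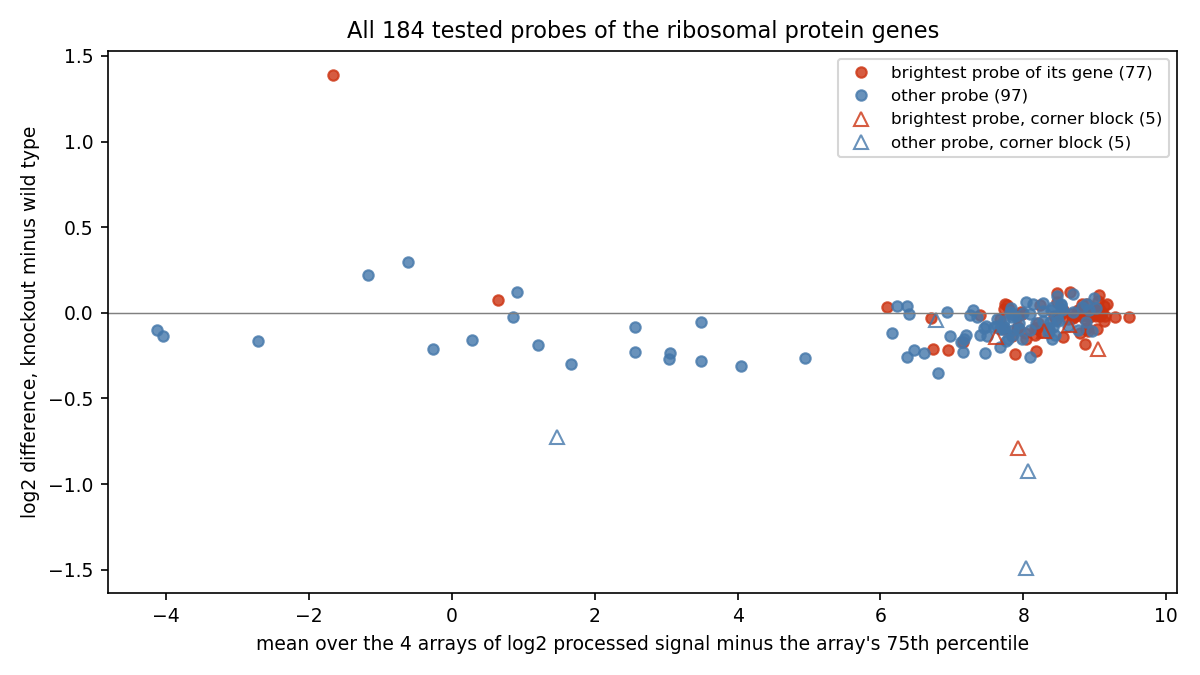
Difference, knockout minus wild type, of each of the 184 tested probes of ribosomal protein genes against its mean level over the 4 arrays (red, the brightest probe of a gene; blue, other probes; triangles, probes in the corner blocks). The 4 lowest probes are corner probes of Rpl38, Rps13, Rps3a and Rpl30, and the highest is Rpl39l.

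Most members were measured by several probes. Of 56 genes with at least 2 tested probes, 49 had differences within a span of 0.25, and 24 had probes of opposite sign. The probes that were not the brightest of their gene, corner blocks left out, numbered 97. Of these 70 had differences below 0, with a median of -0.078, lower than the median of -0.022 from the brightest probes.

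The weakest of those probes, with a mean level under 5, numbered 19 in 18 genes, and 16 of them were below 0 with a median of -0.17. In 11 of the 19 the knockout arrays lay below both wild-type arrays, against 22.3% of all genes. The 17771 tested genes outside the family with a mean under 5 had a median difference of 0.019. The limit of 5 was chosen after the values were seen and no test was made. An example is the weak Rpl23 probe, at 4.27 and 4.14 in wild type and at 3.93 and 3.86 in knockout, a difference of -0.31 with no overlap. The bright Rpl23 probes gave -0.035 and 0.043. A weak Rpl31 probe was at 1.79 and 1.83 against 1.61 and 1.42, a difference of -0.30, where the brightest probe of Rpl31 gave -0.15. Weak Rpl21 probes went the other way, with differences of 0.22 and 0.30.

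Ribosomal protein genes have many processed copies in the genome, which a probe can share. Among the 188 probes, 48 shared a run of at least 30 bases with a probe of another name, and so did the brightest probe of 26 members. The median difference was -0.030 for those 26 genes and -0.019 for the others. The files place 24 of 187 probes on another chromosome than the RefSeq gene, among them the brightest probes of 7 members, such as those of Rpl3 (chromosome 5 against 15) and Rpl38 (6 against 11). Values for such genes may include transcripts of copies. A further 61 tested probes are described as ribosomal protein but carry other names, and 46 of them were below 0, with a median of -0.076.

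The promoters of the family share sequence features. RefSeq promoter sequences of GRCm38.p6, which span the annotated start, were found for 61 of the 82 tested genes. CCGGAAG, the core bound by the ETS factor GABPA, was present on either strand in 42.6% of these genes, against 9.93% of all 27025 genes with a promoter sequence. AAGATGGC, the core bound by YY1, was present in 9.84%, against 3.19%. A C at the annotated start followed by 4 pyrimidines, as in a TOP tract, was present in 21.3%, against 3.01%. These are matches of letters, not sites of binding. Promoters with CCGGAAG belonged to 26 genes with a median difference of -0.014, and promoters without it to 35 genes with a median of -0.027. The 13 genes with a TOP match at the annotated start had a median of -0.091 and the 48 without it -0.017.

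The start windows of the named genes that hold such a tract are shown because the tract is what defines this class of messenger RNA. Each has 15 bases before and 15 from the annotated start, with the pyrimidine run from the start in capitals. On GRCm38.p6 they lie in chr4:86857353-86857382 (Rps6, minus strand), chr17:33955651-33955680 (Rps18, minus), chr2:180257364-180257393 (Rps21, plus), chr3:90213634-90213663 (Rps27, minus), chr11:114668565-114668594 (Rpl38, plus) and chr7:141447636-141447665 (Rplp2, plus). Rpl39l, in chr16:10170213-10170242 (plus), has no C at its annotated start and is shown for contrast.
Rps6: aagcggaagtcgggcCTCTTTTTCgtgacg
Rps18: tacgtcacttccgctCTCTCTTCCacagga
Rps21: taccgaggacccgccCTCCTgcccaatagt
Rps27: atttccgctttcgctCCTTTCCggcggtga
Rpl38: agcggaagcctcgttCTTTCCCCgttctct
Rplp2: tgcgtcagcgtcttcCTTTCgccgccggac
Rpl39l: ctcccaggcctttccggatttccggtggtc
The run was 9 bases long in Rps6 and Rps18 and 5 bases in Rps21 and Rplp2. Rps18 and Rps21 were among the lowest differences of the family (-0.24 and -0.21), whereas Rps6 and Rpl38 were at 0.015 and 0.11.

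The 150 bases before the annotated start are shown for Rpl39l and Rpl39, the paralog pair with the most unlike differences, with CCGGAAG in capitals. On GRCm38.p6 they are chr16:10170078-10170227 on the plus strand for Rpl39l and chrX:37085223-37085372 on the minus strand for Rpl39.
Rpl39l: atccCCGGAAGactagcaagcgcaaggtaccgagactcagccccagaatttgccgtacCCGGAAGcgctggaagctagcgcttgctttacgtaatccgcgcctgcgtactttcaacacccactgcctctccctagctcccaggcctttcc
Rpl39: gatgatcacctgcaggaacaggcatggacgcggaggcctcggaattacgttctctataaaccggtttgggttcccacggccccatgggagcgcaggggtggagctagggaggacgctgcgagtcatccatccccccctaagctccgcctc
The Rpl39l stretch holds 2 matches and the Rpl39 stretch 0, but the Rpl39 promoter also has CCGGAAG, on the other strand and after the annotated start, outside the bases shown. Gabpa, which encodes the DNA-binding subunit of the ETS factor, was at 0.82 and 0.85 in wild type and at 0.55 and 0.48 in knockout, a difference of -0.32 without overlap and with an adjusted p of 0.442 by limma.

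Other genes of the translation pathway were described in the same way. Of 20 translation factors and other TOP genes, 6 were above 0 and 14 below, with a median of -0.13, and 0 passed an unadjusted p of 0.05, against 11.3% of all genes. With the mean of a gene's tested probes the median was -0.053, beside -0.047 for the ribosomal proteins. In 10 of the 20 both knockout arrays lay below both wild-type arrays, against 22.3% of all genes. Nap1l1, a histone chaperone, was at 6.12 and 6.12 in wild type and at 5.82 and 5.86 in knockout, a difference of -0.28. Btf3, a subunit of the nascent polypeptide-associated complex, was at 7.17 and 7.19 against 7.0 and 6.80. Eef2, the translocation factor of elongation, ran the other way, with a difference of 0.25 and overlapping groups.

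Ribosome biogenesis factors, which build the subunits in the nucleolus, numbered 30, with 9 above 0, 21 below and a median of -0.13, and 0 passed an unadjusted p of 0.05, against 11.3% of all genes. That median was 0.016 without wild-type array 2 and 0.017 without knockout array 2, against -0.26 without wild-type array 1 and -0.24 without knockout array 1. Nop10, a protein of the box H/ACA particles, was at 3.90 and 3.96 in wild type and at 3.60 and 3.66 in knockout, a difference of -0.30 without overlap. Ncl, the nucleolin gene, was at 5.64 and 5.95 against 6.03 and 6.06, a difference of 0.25.

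Among 20 upstream regulators, 7 were above 0 and 13 below, with a median of -0.16, and 1 passed an unadjusted p of 0.05 (4.1% of all genes were lower at that p). The median was -0.039 with the corner blocks left out and -0.078 without wild-type array 2. The gene that passed was Myc, which drives transcription of ribosomal protein and biogenesis genes, at 3.94 and 4.23 in wild type and at 3.65 and 3.32 in knockout. The difference was -0.60 with a standard error of 0.19, an unadjusted p of 0.0338 and an adjusted p of 0.408 by limma. Eif4ebp1, the translation inhibitor that mTOR phosphorylates, differed by -0.37 without overlap, and Mtor itself by 0.075 with overlap. Rps6kb2, which encodes an S6 kinase, differed by 0.38 without overlap.

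Eif4a2, Nop14 and Yy1 each had a low value on knockout array 1 alone (1.68, -2.43 and 0.34), while their other 3 arrays lay close to each other.

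Mitochondrial ribosomal proteins, which belong to a separate ribosome, were covered by 76 genes, 26 above 0 and 50 below, with a median of -0.056. In 29 both knockout arrays lay below both wild-type arrays, against 22.3% of all genes. An unadjusted p under 0.05 was reached by 2 of the 76, both lower in knockout, against 11.3% of all genes in either direction and 4.1% lower. Mrpl39 was at 2.66 and 2.73 in wild type and at 1.42 and 1.65 in knockout (difference -1.16, adjusted p 0.255 by limma), and Mrpl38 was at 1.37 and 1.30 against 0.72 and 0.86 (difference -0.55, adjusted p 0.332). Where these genes lie relative to the miR-155 gene was not analysed, and an effect of the deleted locus on nearby genes was not tested.

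**Figure D5:**
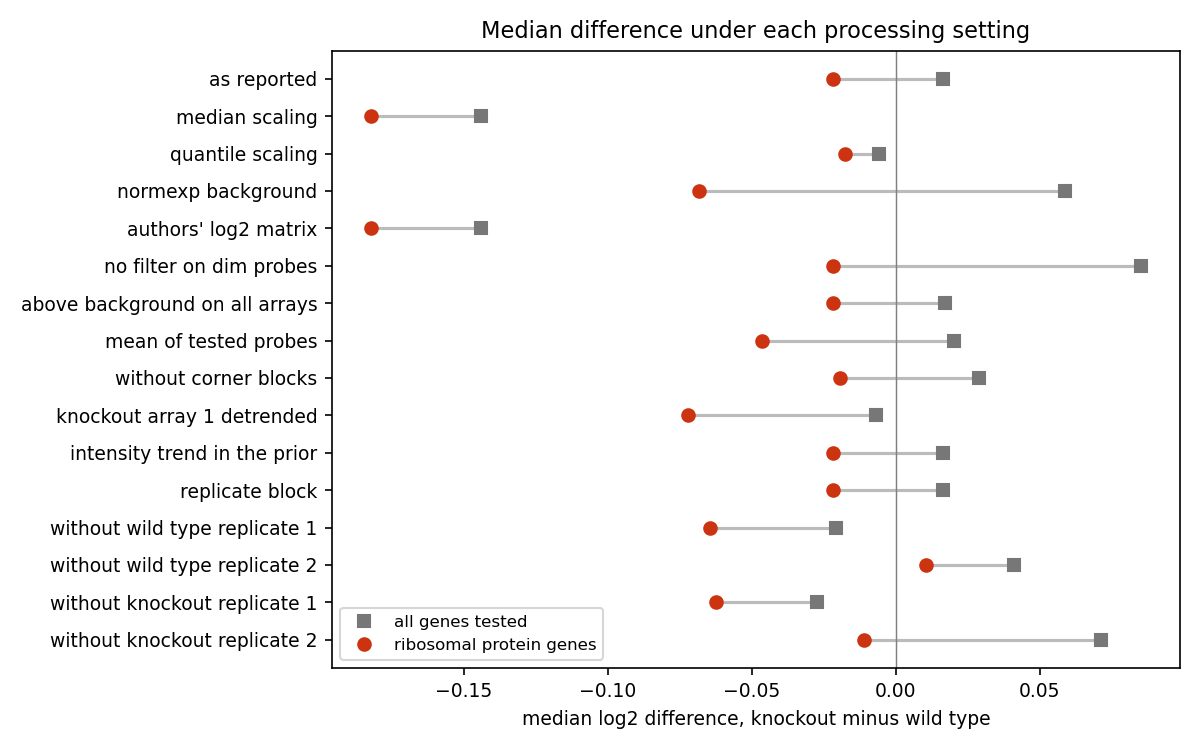
Median log2 difference, knockout minus wild type, of the ribosomal protein genes (red circles) and of all genes tested (grey squares) as reported and under 15 other settings. The ribosomal protein median lies below that of all genes in each setting, with a gap of -0.0115 for quantile scaling and -0.127 for normexp, while its own value runs from -0.18 to 0.011. Median scaling, the authors' matrix, the intensity trend and the replicate block cannot change the gap, which stays at the reported -0.0381 in each.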

How the data were processed

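For each array the authors deposited the output of Agilent Feature Extraction, version 10.5.1.1 per the submitters' processing notes. Its processed signal is a linear intensity, background-subtracted and spatially detrended per the file headers, and its multiplicative surface is a linear ratio per the file headers. The surface had been applied to 0% of bright spots of knockout array 1 and 100% on the others. The authors also deposited a log2 matrix. Each column equalled log2 processed signal plus 1 constant (100% of probes within 0.001), with all column medians at 5.54, so it was used as an alternative. Its scale and direction were thus known, and its centring was an equal median.

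Control and outlier spots were left out, spots of a probe averaged, and log2 signals shifted by each array's 75th percentile. Probes were named through RefSeq (GRCm38.p6): 26762 by accession, 3819 by symbol, 639 by synonym, and 24461 kept their name. All 188 probes of the ribosomal protein genes matched. lincRNA and unnamed probes were set apart. A probe was tested if both arrays of at least 1 genotype exceeded background, and the brightest probe by its mean represented a gene. limma 3.58.1 in R 4.3.3 (lmFit, eBayes; 2 residual and 2.17 prior degrees of freedom) compared genotypes over 19151 genes, with p-values adjusted by Benjamini-Hochberg and called under 0.05. The fit was tested on simulated data. The number of arrays limits the precision. Probe positions are those in the files.

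Named genes were the stalk genes and Rpsa, paralogs with the genes they are named after, the 6 highest and 6 lowest differences, genes with an unadjusted p under 0.05, genes with probes of opposite sign over 0.5 apart, and Rps6, Rps14, Rps19, Rpl5 and Rpl11. Rps13, Rpl23, Rpl31, Rpl21 and genes of the other pathway lists were named after their values were seen. The members, the lists and the tests were chosen with earlier results of these data known. A few genes and their values are not reported here. Alternatives were 2 other scalings, normexp (offset 50), the authors' matrix, other filters and probe rules, corner blocks left out, detrending of knockout array 1, an intensity trend, a replicate block and each array left out.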

Additional observations from a re-analysis of the deposited data

How the results depend on the processing

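The median difference of the ribosomal protein genes, -0.022, was -0.18 with median scaling and with the authors' deposited matrix, -0.068 with normexp and -0.072 with knockout array 1 detrended, and ran from -0.064 to 0.011 over the arrays left out in turn. Genes of the family at an unadjusted p under 0.05 by limma, 1 as reported, numbered 6 with median scaling and with the authors' matrix (Rpl39l higher; Rpl11, Rpl14, Rpl23a, Rps18 and Rps21 lower), 5 with normexp (Rpl39l higher; 4 lower, among them Rpl23a, Rps18 and Rps21), 5 with an intensity trend in the prior (Rpl39l higher; Rpl11, Rpl23a, Rps18 and Rps21 lower) and 1 to 2 with an array left out, the second being Rps3a without knockout array 2. None had an adjusted p under 0.05 under any setting. Over all genes, 2169 had an unadjusted p under 0.05, against 4238 with normexp and 1430 to 2200 with an array left out, the lowest without wild-type array 1, where 30 genes passed after adjustment, none of the family. The cause was not tested. The share of those calls that were higher in knockout was 63.8%, and 24.9% with median scaling, 51.6% with quantile scaling and 72.7% with normexp. With the replicate number as a block, 1713 genes had an unadjusted p under 0.05, and Rpl39l kept its unadjusted call with an adjusted p of 0.432. Deviations of same-numbered arrays from their group means correlated at -0.0011 over the genes tested. That value cannot show whether the samples were paired by animal or culture, which the labels do not say. Of 165 list medians under the alternatives, 48 moved by more than the spread between replicates. Of 450 values of named genes under the alternatives, 60 moved by more than their standard error. Signal over background kept only Rpl10l and Rpl3l of the family from being tested. Rpl39l had the lowest level of the tested members, and its difference was 1.39 as reported and 1.07 with normexp.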
